A study of Mus musculus with 24 samples.

Results

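The 7 genes Hunk, Tacr3, Acot12, Meox1, Gm15663, 1810006J02Rik and 2200002J24Rik were followed through an RNA sequencing table of mouse pancreatic islets that lists 28059 genes. They were chosen by symbol, because their levels lay far apart between islets lacking Cop1 and islets labelled as lacking Etv genes as well, for some of them in 1 of the 2 sets of libraries only. All 7 passed the filter of at least 1 RPKM (reads of a gene scaled for its length and for library size) in at least 4 of 22 libraries. Gm15663 reached 1 RPKM in 22 libraries, Meox1 in 21, Tacr3 in 16, Hunk, Acot12 and 2200002J24Rik in 12 each and 1810006J02Rik in 6. A gene can pass this filter through the group in which it is high, so that passing is not a result. All 6 such libraries of 1810006J02Rik were Cop1 deletion libraries, all 12 of Acot12 and 11 of the 12 of Hunk were Cop1-deleted, and for these genes the test against control is given also from a fit of all genes without the filter.

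The mice were 3 to 4 months old and of mixed background, and the islets were cultured and then picked by hand. In set 1, 4 libraries were labelled with floxed Cop1 (Cop1 fl/fl), floxed Etv1 and Etv5 (Etv1 fl/fl, Etv5 fl/fl), a full knockout of Etv4 (Etv4 ko/ko) and Pdx1.CreERT2. These are called Etv1/4/5-labelled below. In set 2, 4 libraries were labelled with Cop1 fl/fl, Etv5 fl/fl, Pdx1.CreERT2 and 1 knockout copy of Etv4 (Etv4 ko/+), without a floxed Etv1, and are called Etv4/5-labelled. The Cop1 deletion groups, with 3 libraries in set 1 and 4 in set 2, carried Cop1 fl/fl and Pdx1.CreERT2. The control groups, also 3 and 4 libraries, carried Cop1 fl/fl without Cre, so that floxed Cop1 was common to every group. Pdx1.CreERT2 is an inducible Cre recombinase under the Pdx1 promoter, which is active in β cells and not in most other cells that an islet holds. The sets differ in Etv genotype, and set and genotype cannot be told apart. RNA came from whole islets, in which fewer cells of a type and less RNA per cell cannot be told apart. The series gives 5 biological replicates per genotype, a number that no group of a set reaches among the listed samples. No label says which libraries come from separate mice, so p-values measure the spread between these libraries.

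COP1 is an E3 ubiquitin ligase, an enzyme that tags other proteins with ubiquitin so that the proteasome degrades them. ETV1, ETV4 and ETV5 form the PEA3 group of ETS transcription factors and are known substrates of COP1, so that these factors accumulate where COP1 is missing. ETS factors bind DNA at a GGAA core, and the bases around the core set how well a given factor binds. Deleting Etv genes on top of Cop1 asks which changes in the islet need these factors.

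The reads in genes per library, in units of 1e6 reads, numbered 14.3 to 22.7 in set 1 and 35.8 to 44.4 in set 2, so that low genes are measured more precisely in set 2. Cop1 was lower in every Cop1-deleted library than in any control of its set, with means of 0.893 and 1.04 RPKM in Etv1/4/5-labelled and Cop1 deletion islets against 1.44 RPKM in control islets of set 1. In set 2 the Cop1 means were 0.816 and 0.875 RPKM in Etv4/5-labelled and Cop1 deletion islets against 1.64 RPKM in control islets. Against control, all Cop1-deleted libraries together had less Cop1 by 0.41 on the log2 scale in set 1 (SE 0.09, limma, adjusted p = 0.013), a call lost without control replicate 1 (adjusted p = 0.106) or 3 (adjusted p = 0.0862), and by 0.67 in set 2 (SE 0.08, limma, adjusted p = 1.3e-05). Etv1 averaged 5.30 and 4.72 RPKM in Etv1/4/5-labelled and Cop1 deletion islets against 6.53 RPKM in set 1 controls, and Etv5 averaged 3.69 and 2.80 RPKM against 4.94 RPKM. The set 1 controls held Etv5 at 4.17, 8.43 and 2.23 RPKM in replicates 1, 2 and 3, and all groups overlapped. With all Cop1-deleted libraries of set 1 set against control, Etv5 was not called (limma, adjusted p = 0.65). In set 2, Etv5 averaged 1.56 and 2.14 RPKM in Etv4/5-labelled and Cop1 deletion islets against 5.39 RPKM in controls. RPKM over a whole gene does not show whether floxed exons were lost, so these values do not check the deletions. The beta cell markers reached 1 RPKM for 10 of 10 genes in every group. Esr1, the gene whose hormone-binding domain is part of CreERT2, was between 44.0 and 111 RPKM in the libraries labelled with Cre and 0.05 to 0.2 RPKM in set 2 controls. The library labelled control replicate 2 of set 1 listed 99.1 RPKM of Esr1, against 0.169 and 0.191 RPKM in replicates 1 and 3, so it goes against its label. In set 2, transcripts of the Y chromosome were present in 2 Etv4/5-labelled and 2 Cop1 deletion libraries, replicates 1 and 3 and replicates 2 and 3, and were at or near 0 in the controls. In set 1 every library except control replicate 3 held them. Etv1/4/5-labelled replicates 3 and 4 and Cop1 deletion replicate 3 of set 1 also held Xist, a transcript of female cells, at 29.4, 24.2 and 10.4 RPKM. These libraries thus held transcripts of both sexes.

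The promoters of the genes were read for ETS-like letters. RefSeq entries in the GRCm38.p6 build were matched for 6 of 7 genes, all but Meox1, each with 250 bases before and 50 bases after the start of the gene. The motifs searched on both strands were GGAA and its extensions AGGAAG and CGGAAG, each of which contains GGAA. The extended motifs were found in 1810006J02Rik, with 3 copies of AGGAAG, and in Tacr3, with 1 copy of CGGAAG. Neither was found in Hunk, Gm15663, Acot12 or 2200002J24Rik. Of 32851 mouse promoters of the same length, 35.4% held AGGAAG, 16.9% held CGGAAG, 46.5% held either and 96.0% held GGAA. The 4 sequences below show a promoter with each extended motif and those of Hunk and Gm15663, which were high in Cop1 deletion islets of set 1 and near control in Etv1/4/5-labelled islets. Capitals mark AGGAAG or CGGAAG on either strand, so that CTTCCT is AGGAAG read on the other strand. A match describes the letters in this window and not a binding site, and its absence says nothing of the factor.
Hunk (chr16:90386147-90386446, plus strand): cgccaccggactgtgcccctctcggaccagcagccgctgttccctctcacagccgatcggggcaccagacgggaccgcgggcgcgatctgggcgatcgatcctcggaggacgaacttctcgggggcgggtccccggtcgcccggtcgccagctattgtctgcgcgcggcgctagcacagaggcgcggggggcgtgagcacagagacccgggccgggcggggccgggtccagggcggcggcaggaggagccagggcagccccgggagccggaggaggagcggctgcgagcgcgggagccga
Tacr3 (chr3:134828757-134829056, plus strand): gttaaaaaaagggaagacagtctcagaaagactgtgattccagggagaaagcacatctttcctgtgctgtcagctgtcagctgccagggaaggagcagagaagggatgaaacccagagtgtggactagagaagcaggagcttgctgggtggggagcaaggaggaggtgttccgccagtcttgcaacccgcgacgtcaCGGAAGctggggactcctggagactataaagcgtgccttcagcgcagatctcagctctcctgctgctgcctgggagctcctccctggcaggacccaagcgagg
Gm15663 (chr10:105574301-105574600, plus strand): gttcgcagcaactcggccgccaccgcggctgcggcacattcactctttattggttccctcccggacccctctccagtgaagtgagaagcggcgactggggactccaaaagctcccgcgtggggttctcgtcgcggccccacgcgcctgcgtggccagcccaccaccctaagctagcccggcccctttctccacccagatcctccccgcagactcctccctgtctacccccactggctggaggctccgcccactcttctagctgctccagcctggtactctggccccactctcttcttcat
1810006J02Rik (chr1:98131217-98131516, plus strand): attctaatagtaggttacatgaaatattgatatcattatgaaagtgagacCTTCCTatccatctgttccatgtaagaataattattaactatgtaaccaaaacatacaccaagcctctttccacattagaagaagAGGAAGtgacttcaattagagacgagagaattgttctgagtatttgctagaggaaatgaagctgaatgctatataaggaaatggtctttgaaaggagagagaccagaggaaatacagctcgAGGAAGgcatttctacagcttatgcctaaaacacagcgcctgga

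Differences below are between group means of log2(RPKM + 0.5), and they understate the change of genes near or below 0.5 RPKM. Because the difference between Etv deletion and Cop1 deletion chose the genes, it is given without a test, as are the differences from control that use the same libraries. The comparison tested sets all Cop1-deleted libraries of a set, those with and those without Etv deletion, against control with equal weight per library. The difference that chose the genes enters its value through the group labelled with Etv deletion. Its p-values are thus no independent support for genes chosen this way. In set 1 the tested comparison averages a Cop1 deletion group and an Etv1/4/5-labelled group that lay far apart for each of the 7 genes, so its value stands for neither group alone.

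Hunk encodes a serine/threonine kinase of the AMPK-related family. It was high in Cop1 deletion islets of set 1 and near control in the Etv1/4/5-labelled islets of the same set. In set 2 it lay at about the same level in the Etv4/5-labelled and the Cop1 deletion islets. Set 1 values of Hunk were 0.735, 0.791, 0.641 and 0.571 RPKM in Etv1/4/5-labelled islets, 5.41, 4.99 and 5.71 RPKM in Cop1 deletion islets and 0.555, 0.538 and 0.472 RPKM in control islets. The Cop1 deletion libraries lay far above all others, and the Etv1/4/5-labelled libraries lay narrowly above the controls. Set 2 values of Hunk were 1.53, 1.48, 1.83 and 1.75 RPKM in Etv4/5-labelled islets, 1.91, 2.09, 2.09 and 1.57 RPKM in Cop1 deletion islets and 0.558, 0.785, 0.621 and 1.31 RPKM in control islets. The Etv4/5-labelled and Cop1 deletion libraries overlapped, and both groups lay above the controls, of which replicate 4 was the highest.

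The mean of Hunk in Etv1/4/5-labelled islets was 0.127 times that in Cop1 deletion islets, at 0.685 ± 0.0980 against 5.37 ± 0.366 RPKM (SD, n = 4 and 3). In Etv4/5-labelled islets it was 0.861 times that in Cop1 deletion islets, at 1.65 ± 0.167 against 1.91 ± 0.245 RPKM (SD, n = 4 each). Set against control, the Cop1 deletion mean of Hunk was 10.3 times as high in set 1 and 2.34 times as high in set 2. The log2 difference of Etv1/4/5-labelled minus Cop1 deletion islets was −2.31 ± 0.14 (SE), and that of Etv4/5-labelled minus Cop1 deletion islets was −0.17 ± 0.13. In the tested comparison Hunk rose by 1.20 ± 0.13 in set 1 (limma, adjusted p = 1.2e-05) and by 0.82 ± 0.11 in set 2 (limma, adjusted p = 5.6e-05), and without any filter the adjusted p was 1.78e-05 and 9.41e-05. The set 1 minus set 2 difference of these was 0.38 ± 0.17 and did not pass (limma, adjusted p = 0.34). The summed beta cell markers ran from 265968 to 299265 RPKM in Etv1/4/5-labelled islets and from 217417 to 238323 RPKM in Cop1 deletion islets, against 264585 to 299316 RPKM in set 1 controls. In set 2 they ran from 213088 to 238836, 165861 to 243710 and 167520 to 232760 RPKM in Etv4/5-labelled, Cop1 deletion and control islets, with overlap. A sum does not show single markers, and their part in the result was not tested.

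Among the AMPK-related kinases other than Hunk and their upstream kinase, 15 of 17 listed genes were tested. In limma 0 of the 15 were called higher in either set, and 0 were higher at an unadjusted p under 0.05, while 2.04% and 8.21% of all genes tested were called higher. Lower calls numbered 2 in each set, beside 1.46% and 7.42% of all genes. At an unadjusted p under 0.05 (limma), 4 and 6 were lower. The share of all genes lower at that threshold is not given here, so nothing is read from these counts. With limma-voom 2 of the 15 were called in set 1 and 3 in set 2, beside 289 and 2661 of all genes. Nuak2 and Nuak1, kinases of the same family linked to cell adhesion, fell in set 1. The log2 difference of Nuak2 was −0.54 ± 0.10 (limma, adjusted p = 0.0033), and that of Nuak1 was −0.53 ± 0.13 (limma, adjusted p = 0.025). Brsk2, a kinase of neuronal polarity, fell in set 2 by 0.34 (SE 0.08, limma, adjusted p = 0.0053), and Mark1, a microtubule affinity-regulating kinase, by 0.18 (SE 0.06, limma, adjusted p = 0.039). The call of Nuak1 was lost without any of the 3 set 1 controls or Cop1 deletion replicate 2 or 3, and after scaling to equal RPKM totals (adjusted p 0.0563 to 0.157 over these 6), and that of Nuak2 without control replicate 1 (adjusted p = 0.0507). That of Mark1 was lost without set 2 control replicate 1, 2 or 3 or Etv4/5-labelled replicate 1 or 2, without the set 2 libraries with Y-linked transcripts, in a fit of set 2 alone, without the filter and with quantile normalization (adjusted p 0.0503 to 0.129 over these 9). The median log2 difference of the 15 kinases was −0.04 in set 1 and −0.14 in set 2, beside medians of −0.0038 and −0.02 over all genes tested.

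Tacr3 encodes the receptor for the tachykinin peptide neurokinin B, a G protein-coupled receptor best known from neurons of the hypothalamus. It was highest in the islets labelled with Etv deletion in both sets, at similar levels. In set 1 it was also higher in Cop1 deletion islets than in controls. In set 1, Tacr3 was listed at 10.8, 7.09, 12.7 and 8.97 RPKM in Etv1/4/5-labelled islets, 0.912, 2.36 and 1.19 RPKM in Cop1 deletion islets and 0.207, 0.156 and 0.131 RPKM in control islets. The 3 groups did not overlap. In set 2, Tacr3 was listed at 7.5, 8.52, 7.61 and 11.6 RPKM in Etv4/5-labelled islets, 2.02, 0.83, 1.53 and 3.81 RPKM in Cop1 deletion islets and 1.07, 0.943, 1.31 and 1.95 RPKM in control islets. The Etv4/5-labelled libraries lay above all others, and the Cop1 deletion libraries overlapped the controls, with replicate 2 below every control.

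The mean of Tacr3 in Etv1/4/5-labelled islets was 6.65 times that in Cop1 deletion islets, at 9.89 ± 2.42 against 1.49 ± 0.766 RPKM (SD, n = 4 and 3). In set 2 it was 4.31 times that in Cop1 deletion islets, at 8.82 ± 1.94 RPKM in Etv4/5-labelled against 2.05 ± 1.27 RPKM in Cop1 deletion islets (SD, n = 4 each). For Tacr3 the log2 difference of Etv deletion minus Cop1 deletion was 2.42 ± 0.31 (SE) in set 1 and 1.98 ± 0.29 in set 2. Set 1 controls held 9 to 17 reads of Tacr3 per library and set 2 controls 148 to 405 reads, so the control levels differed between the sets. Tacr3 rose in the tested comparison by 2.90 ± 0.28 in set 1 (limma, adjusted p = 3.3e-06) and by 1.37 ± 0.25 in set 2 (limma, adjusted p = 0.00074). The set 1 minus set 2 difference was 1.52 ± 0.37 and passed (limma, adjusted p = 0.042), but the call was lost without any of the 4 Etv1/4/5-labelled, the 3 set 1 control or the 4 set 2 control libraries, without set 2 Cop1 deletion replicate 1 or 3 (adjusted p 0.0516 to 0.118 over these 13 losses), and without the set 2 libraries with Y-linked transcripts (adjusted p = 0.106).

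Summed markers of Schwann cells and neurons, like Tacr3, were highest in the islets labelled with Etv deletion within each set. Their part in the result was not tested. Their summed level ran from 47.7 to 53.5 RPKM in Etv1/4/5-labelled islets and from 28.2 to 38.2 RPKM in Cop1 deletion islets, against 26.7 to 31.0 RPKM in set 1 controls. In set 2 it ran from 16.2 to 26.6 RPKM in Etv4/5-labelled islets and from 9.38 to 14 RPKM in Cop1 deletion islets, against 10.1 to 14.6 RPKM in controls. Between the sets the sum did not follow Tacr3, as it was higher in set 1 controls than in set 2 Etv4/5-labelled islets. Of the 8 markers, 4 reached 1 RPKM in Etv1/4/5-labelled and 6 in Cop1 deletion islets, against 3 in set 1 controls, and 4 did in each group of set 2. None of the 8 was at 0 in all libraries of a group. Summed alpha, delta, PP and epsilon cell markers had medians of 40384, 27390 and 29366 RPKM in Etv1/4/5-labelled, Cop1 deletion and control islets of set 1. In set 2 the medians were 39606, 33967 and 30692 RPKM in Etv4/5-labelled, Cop1 deletion and control islets. The groups overlapped in both sets, and the part of these markers was not tested. Of the other tachykinin genes and receptors, 1 of 5 passed the filter on low values. This gene, Tac1, which encodes substance P and neurokinin A, averaged 2.78 and 3.04 RPKM in Etv1/4/5-labelled and Cop1 deletion islets against 4.03 RPKM in set 1 controls, and it was not called in set 1 (limma, adjusted p = 0.70) or in set 2 (limma, adjusted p = 0.49).

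Acot12 encodes a cytosolic thioesterase, best known from liver, that splits acetyl-CoA into acetate and coenzyme A. Its level was highest in the islets labelled with Etv deletion, intermediate in Cop1 deletion islets and lowest in controls, without overlap between any groups of a set. Libraries of set 1 held Acot12 at 2, 1.42, 4.31 and 2.94 RPKM in Etv1/4/5-labelled islets, 0.675, 0.742 and 0.752 RPKM in Cop1 deletion islets and 0.0160, 0.0340 and 0.0541 RPKM in control islets. The 3 control libraries held only 1, 3 and 3 reads of Acot12, while the Cop1 deletion libraries held 48 to 50 and the Etv1/4/5-labelled libraries 94 to 278. Libraries of set 2 held Acot12 at 3.79, 4.5, 4.06 and 4.66 RPKM in Etv4/5-labelled islets, 3.09, 2.02, 1.69 and 2.77 RPKM in Cop1 deletion islets and 0.343, 0.440, 0.412 and 0.644 RPKM in control islets. Set 2 controls thus lay above set 1 controls, and the spread in Etv deletion islets was wider in set 1.

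The mean of Acot12 was 3.69 times as high in Etv1/4/5-labelled as in Cop1 deletion islets and 1.78 times as high in Etv4/5-labelled as in Cop1 deletion islets. By summed reads per depth, the ratio of Cop1 deletion to control islets in set 1 was 21.3 with an exact 95% interval of 10.1 to 53.8, and in set 2 it was 5.17 with an interval of 4.54 to 5.90. These intervals cover counting error only, since reads without molecular identifiers are not independent molecules. On the log2 scale, Etv deletion minus Cop1 deletion was 1.29 ± 0.22 (SE) in set 1 and 0.74 ± 0.21 in set 2, and that of Cop1 deletion minus control was 1.19 ± 0.24 and 1.57 ± 0.21. Acot12 rose in the tested comparison by 1.93 ± 0.20 in set 1 (limma, adjusted p = 8.1e-06) and by 1.94 ± 0.18 in set 2 (limma, adjusted p = 5.9e-07), and without any filter the adjusted p was 1.69e-05 and 1.3e-06. The difference between the sets was −0.01 ± 0.27 (limma, adjusted p = 0.99), and its size and sign varied with the pseudocount. Its sign was reversed in 15 of 32 alternatives, which also included changed scaling and left-out libraries. The set 1 controls were close to 0, and the cause of the changes was not tested.

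Of 20 listed acyl-CoA thioesterases and enzymes of acetyl-CoA supply other than Acot12, 13 were tested. In limma 0 were called in set 1, where 1 was lower at an unadjusted p under 0.05 and limma-voom called 0, and 1 was called lower in set 2, beside 3.5% of all genes called in set 1 and 7.42% called lower in set 2, so that 1 of 13 is near the background share. That gene was Acot11, a long-chain acyl-CoA thioesterase, whose log2 difference in set 2 was −0.52 ± 0.13 (limma, adjusted p = 0.011), a call lost without set 2 control replicate 1 (adjusted p = 0.0604), and in set 1 −0.48 ± 0.15 (limma, adjusted p = 0.084).

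Meox1 encodes a homeobox transcription factor best known from the somites of the embryo. It differed little between Cop1 deletion and control islets, and it was lower in the islets labelled with Etv deletion in both sets. Meox1 values of set 1 were 0.756, 3.49, 1.22 and 3.47 RPKM in Etv1/4/5-labelled islets, 8.82, 9.32 and 10.8 RPKM in Cop1 deletion islets and 9.81, 8.65 and 8.29 RPKM in control islets. The Etv1/4/5-labelled libraries fell into a lower pair and a higher pair, all below the other groups, which overlapped. Meox1 values of set 2 were 2.90, 3.34, 3.33 and 2.89 RPKM in Etv4/5-labelled islets, 5.11, 6.16, 5.74 and 4.83 RPKM in Cop1 deletion islets and 4.08, 4.43, 4.59 and 4.74 RPKM in control islets. The Etv4/5-labelled libraries again lay below all others, and the Cop1 deletion libraries lay narrowly above the controls.

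The mean of Meox1 in Etv1/4/5-labelled islets was 0.232 times that in Cop1 deletion islets and 0.250 times that in controls. In Etv4/5-labelled islets it was 0.571 times that in Cop1 deletion islets and 0.699 times that in controls. For Meox1 the log2 difference of Etv deletion minus Cop1 deletion was −2.06 ± 0.27 (SE) in set 1 and −0.72 ± 0.25 in set 2, and that of Cop1 deletion minus control was 0.10 ± 0.29 and 0.26 ± 0.25. Meox1 fell in the tested comparison by 1.07 (SE 0.25) in set 1 (limma, adjusted p = 0.018), with a value of −0.10 ± 0.22 in set 2 (limma, adjusted p = 0.81). The set 1 fall came from the Etv1/4/5-labelled libraries, since Cop1 deletion minus control was 0.10 ± 0.29. The set 1 call was lost without control replicate 1 (adjusted p = 0.119), control replicate 3 (adjusted p = 0.058) or Etv1/4/5-labelled replicate 3 (adjusted p = 0.0696), and in a fit of the set 1 libraries alone (adjusted p = 0.109). The difference between the sets, −0.98 ± 0.33, did not pass (limma, adjusted p = 0.17). The genes of the same homeobox family and its listed target, 2 in all, did not pass the filter on low values.

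Meox1 and Etv4, the gene that carries the knockout allele, lie next to each other on chromosome 11 among the genes of the table. Transcripts of Etv4 were listed at 1.53, 0.927, 1.5 and 1.10 RPKM in Etv1/4/5-labelled islets, at 0.0551, 0.0775 and 0.0614 RPKM in Cop1 deletion islets and at 0.0418, 0.0591 and 0.118 RPKM in set 1 controls. These Etv4 reads go against a label of full knockout if taken as transcript level, and they do not show whether a protein is made. The library with the most Etv4 among the Etv1/4/5-labelled islets, replicate 1, had the least Meox1, and replicate 3 was next in both. In set 2 Etv4 was 1.20, 0.843, 0.826 and 0.778 RPKM in Etv4/5-labelled islets, 0.551, 0.926, 1.64 and 0.669 RPKM in Cop1 deletion islets and 0.474, 0.349, 0.661 and 0.646 RPKM in controls, with overlap between the Cop1-deleted groups. Over the 22 libraries, with the mean of each set taken off, Meox1 and Etv4 had a Pearson r of −0.83, which places Etv4 at position 14340 of 14341 genes ordered from most to least like Meox1. This r includes the libraries whose difference chose Meox1, so it is no support for a link. In set 2 the Etv4 mean in Etv4/5-labelled islets was 0.962 times that in Cop1 deletion islets, while that of Meox1 was 0.571 times. Genotype at Etv4 and the stretch of chromosome carried with its knockout allele cannot be told apart in these groups. Dhx8, an RNA helicase gene next to Etv4, had an r of −0.03 with Meox1.

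**Figure D1:**
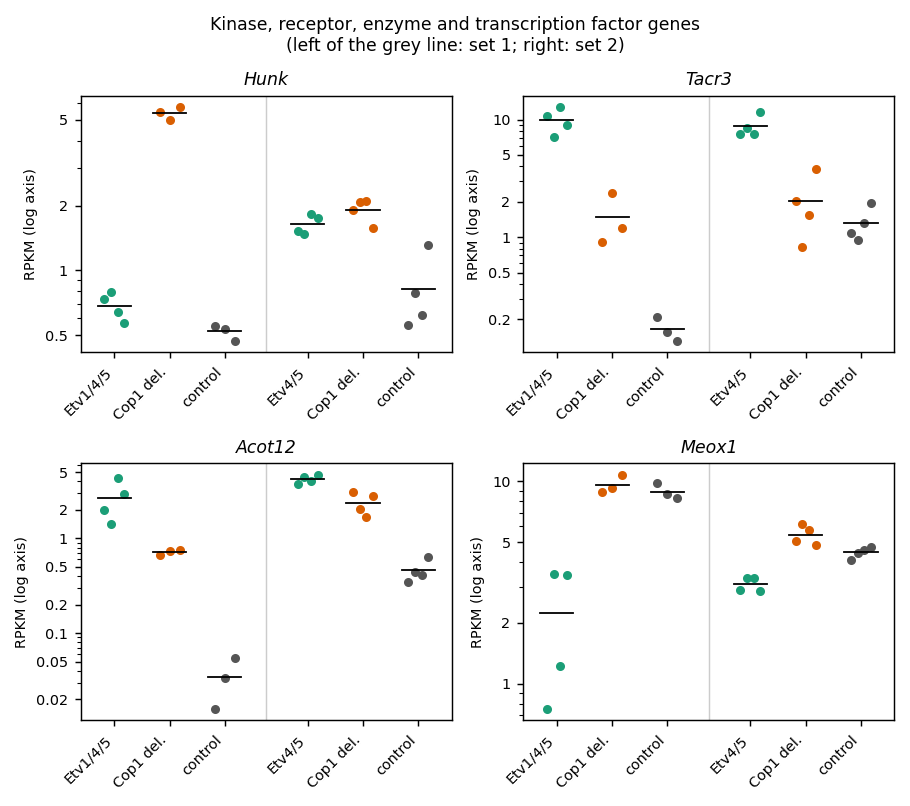
RPKM (log axis) of Hunk, Tacr3, Acot12 and Meox1 in each library (points) with the mean of its group (bars), with Etv1/4/5-labelled or Etv4/5-labelled, Cop1 deletion (Cop1 del.) and control islets from left to right within set 1 and set 2. Hunk is near 5 RPKM only in set 1 Cop1 deletion islets, Tacr3 and Acot12 are highest in the islets labelled with Etv deletion, and Meox1 is lowest there.

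Gm15663 is annotated as a long non-coding RNA gene on chromosome 10. Its pattern was like that of Hunk, high in Cop1 deletion islets of set 1 and at the control level in Etv1/4/5-labelled islets, but raised in both Cop1-deleted groups of set 2. Set 1 values of Gm15663 were 2.14, 2.55, 2.45 and 2.46 RPKM in Etv1/4/5-labelled islets, 21.9, 16.1 and 16.8 RPKM in Cop1 deletion islets and 2.68, 2.35 and 2.69 RPKM in control islets. The Cop1 deletion libraries stood apart, and the other groups overlapped. Set 2 values of Gm15663 were 7.74, 6.95, 7.30 and 6.23 RPKM in Etv4/5-labelled islets, 9.91, 7.16, 9.55 and 9.65 RPKM in Cop1 deletion islets and 4.43, 4.33, 4.13 and 2.49 RPKM in control islets. Cop1 deletion replicate 2 fell among the Etv4/5-labelled libraries, and every control lay below both groups.

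The mean of Gm15663 in Etv1/4/5-labelled islets was 0.132 times that in Cop1 deletion islets, at 2.40 ± 0.176 against 18.2 ± 3.14 RPKM (SD, n = 4 and 3), and 0.933 times that in controls. In Etv4/5-labelled islets it was 0.778 times that in Cop1 deletion islets and 1.83 times that in controls. The log2 difference of Etv deletion minus Cop1 deletion was −2.68 ± 0.15 (SE) in set 1 and −0.33 ± 0.14 in set 2. In the tested comparison Gm15663 rose by 1.07 ± 0.14 in set 1 (limma, adjusted p = 9.6e-05) and by 0.99 ± 0.12 in set 2 (limma, adjusted p = 1.5e-05), and the difference between the sets, 0.08 ± 0.18, did not pass (limma, adjusted p = 0.92).

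1810006J02Rik is a long non-coding RNA gene on chromosome 1 and the lowest of the 7 genes, with a mean of 1.07 RPKM over the 22 libraries. It was highest in Cop1 deletion islets of both sets, lower in the islets labelled with Etv deletion and lowest in controls. In set 1, 1810006J02Rik was listed at 0.669, 0.792, 0.728 and 0.833 RPKM in Etv1/4/5-labelled islets, 5.24, 3.62 and 2.89 RPKM in Cop1 deletion islets and 0.607, 0.348 and 0.358 RPKM in control islets. Set 2 values were 0.497, 0.292, 0.368 and 0.53 RPKM in Etv4/5-labelled islets, 1.06, 1.27, 2.50 and 0.683 RPKM in Cop1 deletion islets and 0.0477, 0.0284, 0.110 and 0.0862 RPKM in control islets. No groups overlapped within a set, although control replicate 1 of set 1 and Cop1 deletion replicate 4 of set 2 came close to the group next to them. The set 2 controls held 2 to 9 reads per library.

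The mean of 1810006J02Rik in Etv1/4/5-labelled islets was 0.193 times that in Cop1 deletion islets and 1.73 times that in set 1 controls. In Etv4/5-labelled islets it was 0.305 times that in Cop1 deletion islets and 6.18 times that in set 2 controls. On the log2 scale, Etv deletion minus Cop1 deletion was −1.78 ± 0.22 (SE) in set 1 and −0.95 ± 0.21 in set 2. The tested comparison gave 1810006J02Rik a log2 difference of 1.19 ± 0.20 in set 1 (limma, adjusted p = 0.0019) and of 1.17 ± 0.18 in set 2 (limma, adjusted p = 0.00016). Since the gene passed the filter only through Cop1 deletion libraries, these p-values are no support on their own. Without any filter the adjusted p (limma) was 0.00267 in set 1 and 0.00028 in set 2. The same libraries enter that fit, so it is no support either. The call in set 1 was not kept with limma-voom on recovered reads (adjusted p = 0.0594). The difference between the sets was 0.03 ± 0.27 (limma, adjusted p = 0.98). Summed duct markers were also highest in set 2 Cop1 deletion islets, and the part of other cells in the result was not tested. The 9 duct markers summed to 1257 to 2837 RPKM in Etv4/5-labelled islets and 2903 to 4553 RPKM in Cop1 deletion islets, against 1322 to 1779 RPKM in controls, with 8 of 9 reaching 1 RPKM and none at 0 throughout a group. The 12 immune markers summed to 63.1 to 67.3 RPKM in Etv4/5-labelled islets and 72.7 to 179 RPKM in Cop1 deletion islets, against 59.0 to 94.3 RPKM in set 2 controls. The Cop1 deletion and control ranges of this sum overlapped. For set 1 the immune sum was 47.6 to 80.5, 40.8 to 73.6 and 48.6 to 54.6 RPKM in Etv1/4/5-labelled, Cop1 deletion and control islets, with overlap. In set 1 the duct marker sum was 607 to 683 RPKM in Etv1/4/5-labelled islets and 436 to 518 RPKM in Cop1 deletion islets, against 499 to 643 RPKM in controls.

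2200002J24Rik is annotated as a protein-coding gene on chromosome 7. It moved opposite to Hunk in set 1, nearly absent in Cop1 deletion islets and at the control level in Etv1/4/5-labelled islets, while in set 2 it was low in both Cop1-deleted groups. Set 1 values of 2200002J24Rik were 1.93, 2.27, 1.08 and 1.43 RPKM in Etv1/4/5-labelled islets, 0.141, 0.0742 and 0.313 RPKM in Cop1 deletion islets and 1.44, 1.25 and 2.79 RPKM in control islets. The Cop1 deletion libraries held 2, 1 and 4 reads and lay below all others, while Etv1/4/5-labelled and control libraries overlapped. Set 2 values of 2200002J24Rik were 0.458, 0.660, 0.738 and 1.21 RPKM in Etv4/5-labelled islets, 0.428, 0.443, 0.349 and 0.8 RPKM in Cop1 deletion islets and 6.47, 5.78, 5.10 and 4.77 RPKM in control islets. The Cop1-deleted groups overlapped, far below the controls.

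The mean of 2200002J24Rik in Etv1/4/5-labelled islets was 9.53 times that in Cop1 deletion islets and 0.919 times that in controls. By summed reads per depth, the ratio of Etv1/4/5-labelled to Cop1 deletion islets was 9.72 with an exact 95% interval of 4.52 to 24.9. The interval covers counting error only and not the spread between libraries. As this is the difference that chose the gene, the interval is no test of it. In Etv4/5-labelled islets the mean was 1.52 times that in Cop1 deletion islets and 0.139 times that in controls. The log2 difference of Etv deletion minus Cop1 deletion was 1.67 ± 0.24 (SE) in set 1 and 0.32 ± 0.22 in set 2. In the tested comparison 2200002J24Rik fell by 0.79 (SE 0.21) in set 1 (limma, adjusted p = 0.046) and by 2.44 (SE 0.19) in set 2 (limma, adjusted p = 6.5e-08). The set 1 minus set 2 difference of 1.65 ± 0.28 passed (limma, adjusted p = 0.0048). Cop1 deletion islets alone had 0.0964 times the control mean in set 1 and 0.0914 times in set 2. On the log2 scale of the test, Cop1 deletion minus control was −1.74 ± 0.25 (SE) in set 1 and −2.60 ± 0.22 in set 2. Etv deletion minus control was −0.07 ± 0.24 in set 1 and −2.28 ± 0.22 in set 2. The called difference holds both groups, and the part of each in it was not tested. The call in set 1 was lost without any of the 3 Cop1 deletion libraries or without control replicate 1 or 3 (adjusted p 0.1 to 0.33), in a fit of set 1 alone (adjusted p = 0.0647), with a pseudocount of 1 (adjusted p = 0.0661), without a filter on low values (adjusted p = 0.0638) and with limma-voom (adjusted p = 0.0617).

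**Figure D2:**
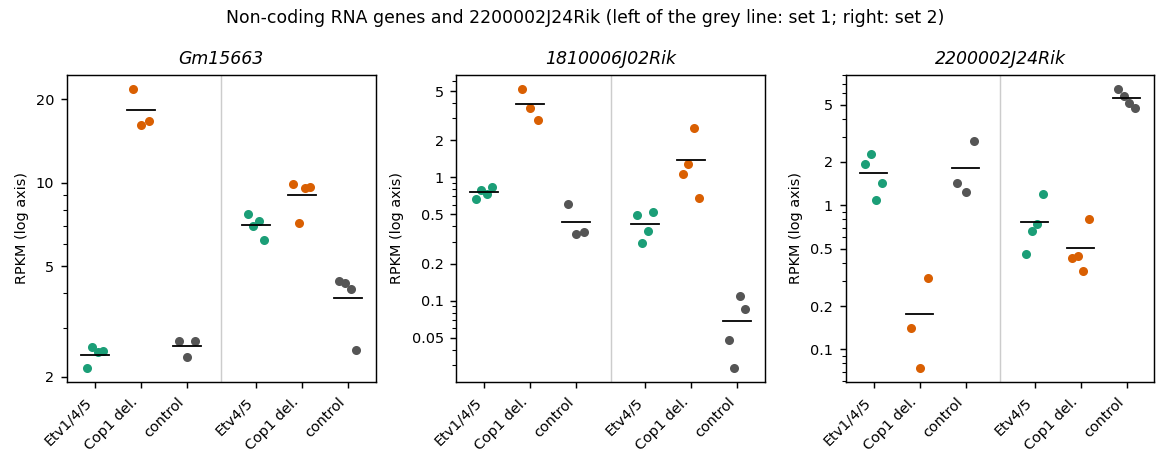
RPKM (log axis) of Gm15663, 1810006J02Rik and 2200002J24Rik in each library (points) with the mean of its group (bars), with Etv1/4/5-labelled or Etv4/5-labelled, Cop1 deletion (Cop1 del.) and control islets from left to right within set 1 and set 2. The Etv1/4/5-labelled islets lie at the control level for Gm15663 and 2200002J24Rik, while the Etv4/5-labelled islets lie near the Cop1 deletion islets.

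Taken over the 7 genes, Etv1/4/5-labelled and Cop1 deletion islets did not overlap for 7, while 30.7% of all genes tested did not overlap. This is the difference that chose the genes, and nothing is read from the count. Etv4/5-labelled and Cop1 deletion islets of set 2 did not overlap for 4, namely Tacr3, Acot12, Meox1 and 1810006J02Rik, with 13.8% of all genes. By size of the log2 difference between Etv deletion and Cop1 deletion among 14342 genes, Gm15663 was at position 8 in set 1 and 2452 in set 2. Tacr3 was at 9 and 29, Hunk at 11 and 6142, Meox1 at 16 and 442, 1810006J02Rik at 28 and 211, 2200002J24Rik at 33 and 2621, and Acot12 at 85 and 403. Hunk, Gm15663 and 2200002J24Rik thus ranked high in set 1 and not in set 2, where Tacr3 ranked highest of the 7 genes.

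Cop1 deletion and control islets did not overlap for 6 of the 7 genes in set 1, all but Meox1, and for 6 in set 2, all but Tacr3, while 29.9% and 16.1% of all genes tested did not overlap. The islets labelled with Etv deletion and the controls did not overlap for 5 of the 7 genes in set 1 and for 7 in set 2, beside 14.1% and 21.6% of all genes. The tested comparison called 7 of 7 genes in set 1, where 3.5% of all genes were called, and 6 of 7 in set 2, where 15.6% were called, with Meox1 not called. Of the differences between the sets, those of Tacr3 and 2200002J24Rik were called, beside 1.67% of all genes. The genes were picked with such differences in view and some passed the filter only through Cop1-deleted libraries, so these counts describe them and support nothing. The median log2 difference of the 7 genes in the tested comparison was 1.19 in set 1 and 0.99 in set 2, beside −0.0038 and −0.02 over all genes tested. Without the library labelled control replicate 2 of set 1, which held Esr1, the 7 calls of set 1 were kept, with adjusted p from 5.73e-05 for Tacr3 to 0.0435 for Meox1.

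**Figure D3:**
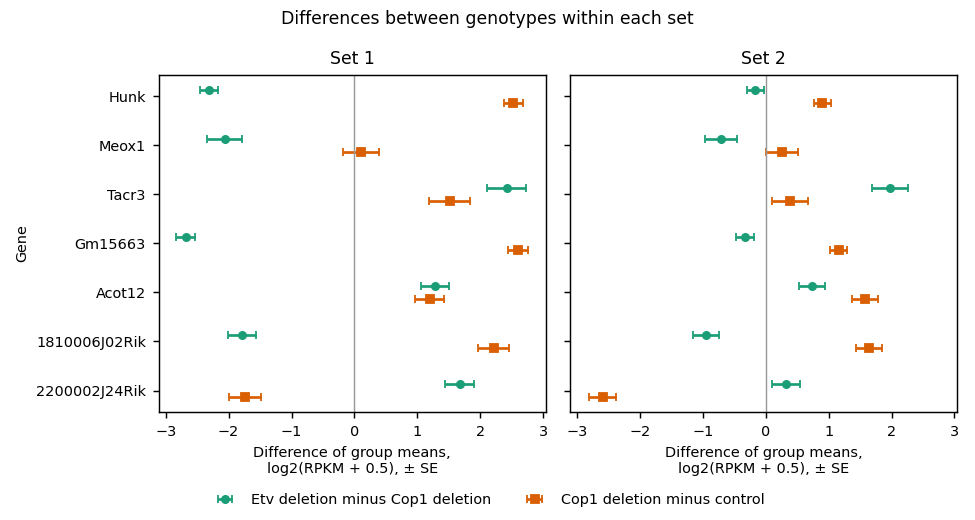
Differences of group means on the log2(RPKM + 0.5) scale with SE for the 7 genes in set 1 (left) and set 2 (right), as Etv deletion minus Cop1 deletion (circles) and Cop1 deletion minus control (squares). The circles of Hunk, Gm15663 and 2200002J24Rik lie at −2.31, −2.68 and 1.67 in set 1 and at −0.17, −0.33 and 0.32 in set 2.

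Among themselves the genes fell into sets of like profiles over the 22 libraries, once the mean of each set was taken off. These correlations describe libraries that share groups, and they carry no test. Hunk, Gm15663 and 1810006J02Rik ran together, with a Pearson r of 0.93 for Hunk and Gm15663 and of 0.88 for 1810006J02Rik with each of them. 2200002J24Rik ran against them, with an r of −0.76 with Hunk, −0.77 with Gm15663 and −0.83 with 1810006J02Rik. Tacr3 and Acot12 had an r of 0.89, and Meox1 had an r of −0.81 with Tacr3 and −0.63 with Acot12.

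The genes most like each of the 7 were searched for among all genes tested by the same r over 22 libraries. Closest to Hunk were Rpn2 (r = 0.96), a subunit of the oligosaccharyltransferase of the endoplasmic reticulum, and Nucb2 (r = 0.96), the precursor of nesfatin. Closest to 1810006J02Rik were Amigo2 (r = 0.95), a cell adhesion protein gene, and Chgb (r = 0.94), a secretory granule protein gene. Amigo2 averaged 20.1 and 51.4 RPKM in Etv1/4/5-labelled and Cop1 deletion islets against 16.9 RPKM in set 1 controls, and 21.4 and 33.4 RPKM in Etv4/5-labelled and Cop1 deletion islets against 16.9 RPKM in set 2 controls. Closest to 2200002J24Rik was Slc2a2 (r = 0.95), the glucose transporter of β cells, which averaged 176 and 58.9 RPKM in Etv1/4/5-labelled and Cop1 deletion islets against 236 RPKM in set 1 controls. In set 2 Slc2a2 averaged 12.9 and 5.57 RPKM in Etv4/5-labelled and Cop1 deletion islets against 64.0 RPKM in controls. Closest to Tacr3 were Astn2 (r = 0.91) and the potassium channel gene Kcnj6 (r = 0.89), and closest to Meox1 were Map2k6 (r = 0.87), a kinase of the p38 pathway, and Mtfmt (r = 0.86). Erlec1 (r = 0.95), a lectin gene of the endoplasmic reticulum, was 2nd for Gm15663, and Tubg1 (r = 0.95), a gamma tubulin gene, was 2nd for Acot12.

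For Gm15663, Acot12 and 2200002J24Rik, the list of closest genes held a neighbour on the chromosome. Tmtc2, a gene of a transmembrane protein of the endoplasmic reticulum that runs on the opposite strand to Gm15663, was the closest of 14341 genes to Gm15663 (r = 0.97). It had 6.46, 7.04, 7.15 and 6.88 RPKM in Etv1/4/5-labelled islets, 28.6, 22.9 and 19.2 RPKM in Cop1 deletion islets and 7.98, 7.36 and 8.07 RPKM in set 1 controls. Its Cop1 deletion libraries stood apart in set 1, as for Gm15663. In set 2 Tmtc2 had 9.10, 9.19, 9.15 and 9.07 RPKM in Etv4/5-labelled islets, 12.6, 5.89, 10.4 and 10.5 RPKM in Cop1 deletion islets and 6.83, 6.95, 6.25 and 4.55 RPKM in controls. Replicate 2 of the Cop1 deletion and replicate 4 of the control islets were the lowest of their groups for both Tmtc2 and Gm15663. The other neighbours, Mettl25 and Ccdc59, had an r of 0.20 and 0.34 with Gm15663.

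4833422C13Rik, annotated on the opposite strand and overlapping Acot12, was the closest gene to Acot12 (r = 0.97). It averaged 1.05 and 0.611 RPKM in Etv1/4/5-labelled and Cop1 deletion islets against 0.457 RPKM in set 1 controls, and 1.21 and 0.820 RPKM in Etv4/5-labelled and Cop1 deletion islets against 0.411 RPKM in set 2 controls, with no overlap between groups of a set. Tmtc2 overlaps Gm15663 and 4833422C13Rik overlaps Acot12 in the annotation, and whether the counting used strand is not given in the sources used here. Reads of the overlapping genes can then not be told apart, and these pairs are uncertain. Gm11551, which overlaps Meox1 on the opposite strand, is a further overlap, as are Gm24597 and Gm27656 with Acot12. Hunk, Tacr3, 1810006J02Rik and 2200002J24Rik had no overlapping gene in the annotation.

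Atp4a, the catalytic subunit of the gastric proton pump, is the next gene after 2200002J24Rik on the same strand, does not overlap it, and was 2nd closest to it of 14341 genes (r = 0.94). It had 8.19, 2.63, 2.11 and 2.04 RPKM in Etv1/4/5-labelled islets, 0.398, 0.630 and 0.651 RPKM in Cop1 deletion islets and 3.04, 3.18 and 4.24 RPKM in set 1 controls. In set 2 it had 0.516, 0.656, 0.777 and 0.716 RPKM in Etv4/5-labelled islets, 0.665, 0.380, 0.464 and 0.561 RPKM in Cop1 deletion islets and 5.46, 5.20, 3.45 and 4.62 RPKM in controls. The Etv1/4/5-labelled libraries lay above the Cop1 deletion libraries for Atp4a, with replicate 1 above every control and the other 3 below every control, and the Etv4/5-labelled libraries lay far below the controls and overlapped the Cop1 deletion libraries. Tmem147, beyond Atp4a, had an r of 0.82 with 2200002J24Rik, and Haus5, on the other side, 0.35.

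The nearest neighbour of 1810006J02Rik in the table, B230216N24Rik (r = 0.68), followed it in set 2, where its mean in Etv4/5-labelled islets was 0.644 times that in Cop1 deletion islets and its Cop1 deletion mean was 2.67 times that in controls, both without overlap. In set 1 the groups of B230216N24Rik overlapped. Pam and Cntnap5b, whose spans do not overlap that of 1810006J02Rik, were highest in Cop1 deletion islets of set 1. Pam, an enzyme that amidates peptide hormones, averaged 199 and 278 RPKM in Etv1/4/5-labelled and Cop1 deletion islets against 164 RPKM in set 1 controls, and no groups overlapped. In set 2 the Pam mean in Etv4/5-labelled islets was 0.911 times that in Cop1 deletion islets, with overlap, and the Cop1 deletion mean was 1.63 times that in controls, without overlap. Cntnap5b, a contactin-associated protein gene, had 0.173, 0.225, 0.489 and 0.681 RPKM in Etv1/4/5-labelled islets, 3.39, 3.08 and 2.70 RPKM in Cop1 deletion islets and 0.486, 0.560 and 0.912 RPKM in set 1 controls. In set 2 the mean of Cntnap5b in Cop1 deletion islets was 1.16 times that in controls, with overlap. Of the neighbours of Hunk, Scaf4, Sod1 and Mis18a had an r of 0.05, 0.35 and 0.47 with it. The mean of Mis18a in set 2 was 1.48 times as high in Cop1 deletion as in control islets, without overlap, and that of Gm17518, which did not pass the filter, was 1.59 times as high in set 1, without overlap.

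**Figure D4:**
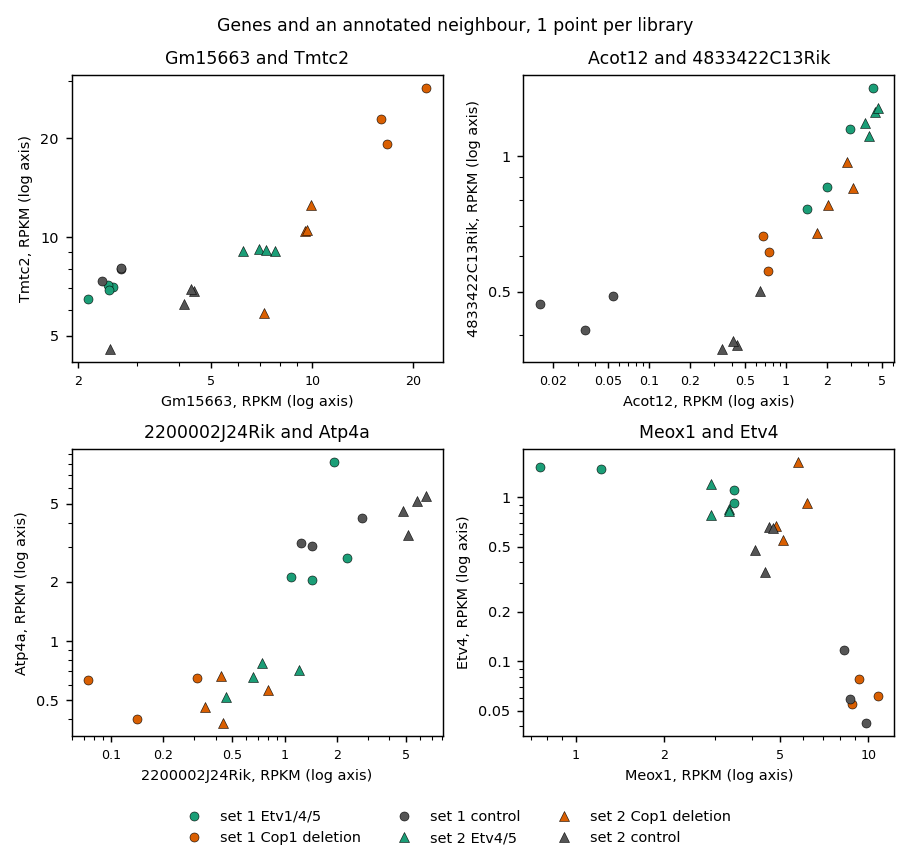
RPKM (log axes) of Gm15663, Acot12, 2200002J24Rik and Meox1 against Tmtc2, 4833422C13Rik, Atp4a and Etv4, their neighbours on the chromosome, with 1 point per library coloured by group (circles for set 1, triangles for set 2). The first 3 pairs rise together, and Etv1/4/5-labelled libraries hold the lowest Meox1, at 0.756 to 3.49 RPKM, beside Etv4 at 0.927 to 1.53 RPKM.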

How the data were processed

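Libraries for Illumina sequencing were made from islet RNA, per the labels. The deposited values are RPKM that the authors computed from reads placed, per the submitters' processing notes, on build mm9. No label or file header names the aligner, the counter or the use of strand. Columns were tied to samples by the number in the title, and 2 of 24 columns could not be placed and were not used. Reads per gene were recovered from the steps of the RPKM values and lay within 0.02 of whole numbers for 23634 of 23637 genes above 0.

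The 14342 genes that passed the filter were fitted as log2(RPKM + 0.5) with limma 3.58.1 in R 4.3.3, with 1 mean per group, a variance trend and robust estimation. P-values were adjusted by Benjamini-Hochberg over all genes of a comparison, and a gene below 0.05 is called. The fit was tested on simulated data. The 7 genes and all lists were chosen with earlier results of these data known. Besides them, the text names the targeted genes, the 2 most correlated genes, up to 2 neighbours on each side and list members that were called. Symbols and neighbours came from GRCm38.p6 by NCBI Gene number, and overlaps and strands from a GRCm38 annotation. Alternatives covered pseudocount, filter, scaling, variance estimation, library weights, each set alone, each library left out, set 2 libraries with Y-linked transcripts left out and, added after seeing the data, limma-voom on the recovered reads.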

Additional observations from a re-analysis of the deposited data

Results flagged for a closer look

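Within groups of 4 libraries, 1 library lay far from the others in 5 of 48 gene and group combinations, where chance gives about 5% of them. Gm15663 was 7.16 RPKM in set 2 Cop1 deletion replicate 2, below the other 3 libraries of its group at 9.55 to 9.91 RPKM, and 2.49 RPKM in set 2 control replicate 4, below the other 3 at 4.13 to 4.43 RPKM. Etv1, which encodes a PEA3 factor, was 1.81 RPKM in the same Cop1 deletion replicate 2, below the other 3 at 4.56 to 5.12 RPKM. Etv4 was 1.20 RPKM in set 2 Etv4/5-labelled replicate 1, above the other 3 at 0.778 to 0.843 RPKM. Esr1 was 71.9 RPKM in that replicate 1, below the other 3 at 93.9 to 98.3 RPKM.

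The difference between all Cop1-deleted libraries and control differed between set 1 and set 2 for Tacr3, by 1.52 on the log2 scale (limma, adjusted p = 0.042), and for 2200002J24Rik, by 1.65 (limma, adjusted p = 0.0048). The set 1 and set 2 values were 2.90 and 1.37 for Tacr3 and −0.79 and −2.44 for 2200002J24Rik. The Tacr3 call was lost in 17 of 32 alternatives. For 2200002J24Rik, Cop1 deletion islets alone were at 0.0964 and 0.0914 times the control mean in set 1 and set 2. On the log2 scale, its Cop1 deletion minus control was −1.74 and −2.60, and its Etv deletion minus control was −0.07 and −2.28. The difference of 2200002J24Rik between the sets holds both groups, and the part of each was not tested.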

How the results depend on the processing

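Across alternatives, 1314 of 1444 values for the 7 genes kept their direction and their side of the threshold or moved by less than the replicate spread. Hunk, Tacr3, Gm15663 and Acot12 kept their calls in both sets under every alternative that tested them, as did 1810006J02Rik and 2200002J24Rik in set 2. With a set alone, Hunk and 1810006J02Rik in set 1 and 1810006J02Rik in set 2 reached 1 RPKM in too few libraries to be tested. Counts over all genes moved. The 502 genes called in set 1 became 990 with set 1 alone, 4647 with library weights, 773 without the libraries with Y-linked transcripts, 289 with limma-voom and 181 to 856 with a library left out. The 2241 of set 2 became 1353 with set 2 alone, 4988 with library weights and 1609 to 2732 with a library left out. The 239 of the difference between sets became 3515 with library weights, 152 with limma-voom and 106 to 453 with a library left out. The lowest counts came without set 1 control replicate 1 (181 and 106) and set 2 control replicate 2 (1609), and the highest without set 2 Cop1 deletion replicate 2 (856 and 2732) and set 2 control replicate 4 (453). Scaling to equal total RPKM moved the median of the difference between sets over all genes to 0.13, and the share of higher calls to 70.5% from 58.2% in set 1, to 32.1% from 52.5% in set 2 and to 74.2% from 41% in the difference. It was 38.9% in set 2 and 56.6% in the difference with limma-voom, and 55.8% in the difference with library weights. The difference between sets changed sign, uncalled, for Acot12 at a pseudocount of 0.1 (0.99), equal totals (0.0239), quantile normalization (0.0887), limma-voom (2.47) and with a library left out (−0.22 to 0.12), for 1810006J02Rik at a pseudocount of 0.1 (−0.69), limma-voom (−1.54) and with a library left out (−0.21 to 0.204), and for Gm15663 with a library left out (−0.22 to 0.29). Nuak2 in set 2 changed sign, uncalled, with equal totals (−0.0174). The Tacr3 difference between sets was also lost with a pseudocount of 1 (adjusted p = 0.0996), without a filter (adjusted p = 0.0631) and with limma-voom (adjusted p = 0.132), and that of Meox1 was called with library weights (adjusted p = 0.0214). The causes were not tested. No paired analysis was possible because replicate numbers were given in accession order only. Below about 10 reads per library, as for Acot12 in set 1 controls and 2200002J24Rik in set 1 Cop1 deletion islets, counting error limits the values.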
